A study of Rattus norvegicus with 10 samples.

Results

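Fas, the initiator caspases Casp2, Casp8 and Casp9, the executioner caspase Casp6, the adaptor Fadd, the apoptosome scaffold Apaf1 and the caspase inhibitor Xiap were followed in the rat liver after total body irradiation (TBI). The 8 genes were taken by name, by a rule that holds no measured value, although the list was drawn up with earlier results of these data known. Probes were named by RefSeq transcript accession alone, and 7 of the 8 were found among the 13426 genes named in this way. No probe was matched to Fadd, which was not analysed here. The array's own gene names were not searched, so further probes of these genes may have been missed. Fas and Casp9 had 2 probes each and the others 1, and all 9 probes were well above background on all 10 arrays.

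Liver RNA came from male Wistar rats, with 1 one-colour array per rat. The control group held 3 rats that received neither MASM nor irradiation, the TBI group held 3 rats exposed to 6.5 Gy of 60Co radiation at 2 Gy per min, and the MASM + TBI group held 4 rats that received MASM, a derivative of the plant alkaloid matrine, at 30 mg/kg per day by mouth for 3 days before the same exposure. Livers were taken 24 h after irradiation. No array of rats given MASM without irradiation was analysed here, so all MASM values are those of irradiated rats. The dose is that of the sample labels, from which the text of the study differs slightly.

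Apoptosis can start at the cell surface or inside the cell. When Fas ligand binds the receptor Fas, the adaptor Fadd brings procaspase-8 to the receptor, where it becomes active; when mitochondria release cytochrome c, Apaf1 assembles into the apoptosome and activates caspase-9, and both routes end in executioner caspases, which Xiap holds back. Fas is a known target of the tumour suppressor p53 and is present on hepatocytes, in which its activation can cause liver failure.

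The promoters of the 3 members that passed the test in at least one comparison are printed so that the start of each measured gene can be seen. They are the 250 bases before the transcript start in the RefSeq table of the GRCr8 assembly, which held 6 of the 8 members, and the capitals mark the GC box GGGCGG, searched on both strands.
Fas, chr1:241211905-241212154, plus strand: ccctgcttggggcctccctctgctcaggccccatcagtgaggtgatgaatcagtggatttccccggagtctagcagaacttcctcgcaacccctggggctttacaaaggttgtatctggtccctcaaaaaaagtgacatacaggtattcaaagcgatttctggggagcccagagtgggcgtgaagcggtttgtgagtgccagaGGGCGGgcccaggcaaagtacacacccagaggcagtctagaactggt
Casp2, chr4:72116107-72116356, plus strand: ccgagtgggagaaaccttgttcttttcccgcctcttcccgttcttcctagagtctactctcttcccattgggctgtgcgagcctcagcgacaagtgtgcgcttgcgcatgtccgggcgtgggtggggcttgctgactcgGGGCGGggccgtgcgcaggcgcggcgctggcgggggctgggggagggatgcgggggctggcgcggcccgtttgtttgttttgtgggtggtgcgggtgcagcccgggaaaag
Apaf1, chr7:27466773-27467022, minus strand: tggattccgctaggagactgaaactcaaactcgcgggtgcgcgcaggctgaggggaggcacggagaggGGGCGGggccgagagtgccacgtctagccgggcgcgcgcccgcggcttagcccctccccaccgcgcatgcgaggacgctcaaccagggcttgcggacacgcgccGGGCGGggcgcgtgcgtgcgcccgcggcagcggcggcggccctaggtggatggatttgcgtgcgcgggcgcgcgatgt
The GC box lay 42 bases before the start of Fas, 106 bases before that of Casp2, and 177 and 73 bases before that of Apaf1. All 6 members in the table had at least 1 GC box in this window, as did 30.5% of the 33469 promoters of the table. The Fas window was the poorest of the 3 in CG pairs, with 6 pairs and a G + C content of 55.6%, against 23 pairs and 66.8% for Casp2 and 39 pairs and 74% for Apaf1. A CCAAT box was found in the Casp2 window, 180 bases before the start, and in none of the other 5 members, against 34% of all promoters. Neither a TATA box (TATAAA, in 12.9% of all promoters) nor a p53 half-site (in 6.64%) was found in the 6 windows, which says only that these letters are not in them.

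The first question was which of these genes differed between irradiated and control livers. Fas rose about 2-fold and Casp2 fell slightly in TBI rats, while Casp6, Casp8, Casp9, Apaf1 and Xiap did not pass the test. These were 2 of the 7 measured members at an adjusted p under 0.05, from limma with Benjamini-Hochberg adjustment over all 40945 probes. In the same comparison 6.63% of all 13426 named genes passed, 2.97% higher and 3.66% lower. At the threshold used in the study (a fold of 1.5 or more, and p under 0.05 before adjustment) Fas alone passed, beside 13.1% of all named genes. Unless another test is named, the p set against this threshold was that of limma, where the study used a simple t-test. The median log2 fold change of the 7 members was -0.0014, and that of all named genes was -0.0092.

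Fas is the death receptor of the group. The log2 signal of its brighter probe, A_42_P652897, was 9.60, 9.95 and 9.43 in the control rats, 10.42, 10.95 and 10.93 in the TBI rats, and 10.80, 10.99, 10.57 and 10.73 in the MASM + TBI rats. All 7 irradiated rats lay above all 3 controls, and both irradiated groups overlapped. In TBI rats versus control 11.3% of all probes lay higher without overlap, and 9.35% did so in MASM + TBI rats. Fas rose by a log2 fold change of 1.11 ± 0.19 (SE) in TBI rats, which is 2.16-fold with a 95% interval of 1.60 to 2.91 (limma, adjusted p = 0.0166). In MASM + TBI rats versus control it rose by 1.11 ± 0.18 (SE), or 2.17-fold (limma, adjusted p = 0.0173). With 1 rat left out at a time the TBI rise lay between 0.99 and 1.28 and missed the threshold without control rat 1 or 3 (limma, adjusted p = 0.0513 and 0.0600), and the MASM + TBI rise lay between 1.00 and 1.26 and missed it without control rat 3 or MASM + TBI rat 1 (limma, adjusted p = 0.0713 and 0.0553).

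The dimmer Fas probe, A_44_P463745, gave the same order of groups. Its log2 signal was 6.37, 6.84 and 6.42 in control rats, 7.33, 7.96 and 7.32 in TBI rats, and 7.61, 7.84, 7.39 and 7.68 in MASM + TBI rats. Again no irradiated rat reached down to the highest control. The rise was 0.99 ± 0.21 (SE) in TBI rats and 1.09 ± 0.19 (SE) in MASM + TBI rats (limma, adjusted p = 0.0329 and 0.0262).

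**Figure D1:**
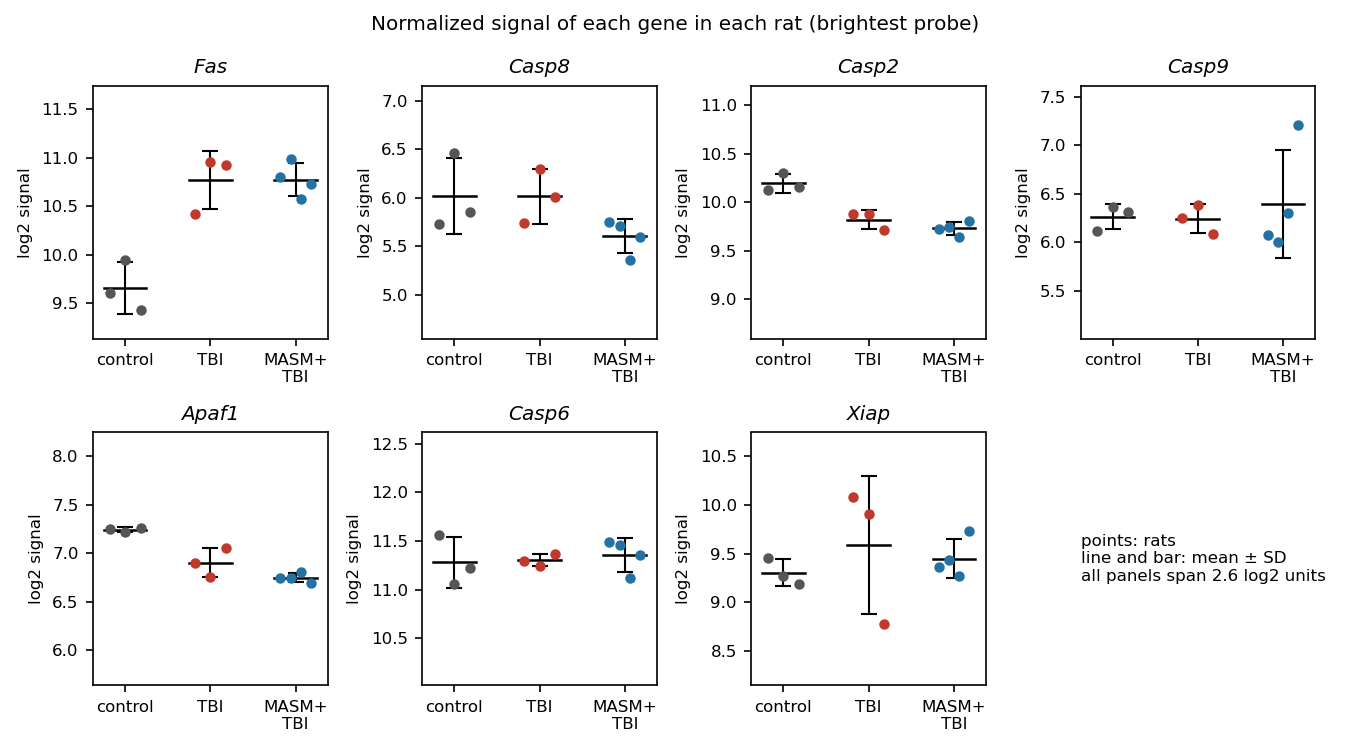
Log2 normalized signal (y axis) of the brightest probe of each of the 7 measured genes in every rat (points) of the control, TBI and MASM + TBI groups (x axis), with the mean ± SD as a line and bar. All panels span the same log2 range. Fas was higher in all 7 irradiated rats, with a lowest value of 10.42 against a highest control of 9.95, and Casp2 and Apaf1 were lower in all of them. Of all probes, 11.3% lay higher and 19% lower without overlap in TBI rats, and 9.35% and 8.9% in MASM + TBI rats.

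Among the initiator caspases, Casp2 moved opposite to Fas. Caspase-2 is the initiator that is activated in a complex of its own after DNA damage. The log2 signal of Casp2 was 10.13, 10.30 and 10.15 in control rats, 9.88, 9.88 and 9.71 in TBI rats, and 9.72, 9.75, 9.64 and 9.81 in MASM + TBI rats. Every irradiated rat lay below every control, as did 19% of all probes for TBI and 8.9% for MASM + TBI. Casp2 fell by 0.37 ± 0.086 (SE) on the log2 scale in TBI rats (limma, adjusted p = 0.0451) and by 0.46 ± 0.081 (SE) in MASM + TBI rats (limma, adjusted p = 0.0234). These are 1.29-fold and 1.38-fold lower, under the fold used in the study. The Casp2 call in TBI rats was at the edge of the threshold: with 1 of the 10 rats left out at a time it passed in 1 of 10 fits, that without MASM + TBI rat 3, with an adjusted p of up to 0.117 and a log2 fold change between -0.41 and -0.32. In MASM + TBI rats it passed in 5 of 10 such fits (limma, adjusted p up to 0.0874).

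Casp8, the initiator recruited to Fas, did not pass the test. Log2 signals were 5.73, 6.46 and 5.85 in control rats, 5.74, 6.30 and 6.01 in TBI rats, and 5.75, 5.71, 5.36 and 5.60 in MASM + TBI rats. The 4 MASM + TBI rats lay in the lower part of the range, and all 3 groups overlapped. The difference from control was -0.0014 in TBI rats (95% interval -0.50 to 0.50) and -0.41 in MASM + TBI rats (95% interval -0.88 to 0.05; limma, adjusted p = 0.362). The MASM + TBI value was -0.19 without control rat 2, -0.14 with normexp background correction and -0.66 within the slide shared by MASM + TBI rat 3 and the control rats, and did not pass under any alternative.

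Casp9, the initiator that the apoptosome activates, had a pair of probes, and neither passed in any comparison. The brighter probe, A_44_P238608, read 6.12, 6.36 and 6.32 on the log2 scale in control rats, 6.25, 6.39 and 6.09 in TBI rats, and 6.07, 5.999, 6.30 and 7.21 in MASM + TBI rats. One rat, the fourth of the MASM + TBI group, stood above all others. It did not stand out on the dimmer probe, A_44_P121227, where it gave 4.72, the lowest of its group, whose other rats gave 5.05, 4.90 and 4.96. The dimmer probe read 4.81, 5.01 and 4.90 in control and 4.80, 4.84 and 4.42 in TBI rats. For TBI versus control the 2 probes gave -0.02 (95% interval -0.68 to 0.63) and -0.22 (95% interval -0.53 to 0.09).

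Apaf1, the scaffold of the apoptosome, was lower in all irradiated rats and passed the test in MASM + TBI rats. The probe of Apaf1 read 7.25, 7.22 and 7.26 on the log2 scale in control rats, 6.90, 6.76 and 7.05 in TBI rats, and 6.74, 6.75, 6.80 and 6.70 in MASM + TBI rats. Neither irradiated group overlapped the control group. Of all probes, 19% lay lower without overlap in TBI rats and 8.9% in MASM + TBI rats. The irradiated groups overlapped with each other. Apaf1 fell by 0.49 ± 0.080 (SE) on the log2 scale in MASM + TBI rats, or 1.41-fold (limma, adjusted p = 0.0186), and passed in 5 of 10 fits with 1 rat left out (adjusted p up to 0.0768). In TBI rats the difference was -0.34 ± 0.086 (SE), with a 95% interval of -0.53 to -0.14 and an adjusted p of 0.0586 (limma). With 1 rat left out at a time that difference lay between -0.41 and -0.27, and it passed without TBI rat 3 (limma, adjusted p = 0.0192) and in none of the other 9 fits (adjusted p up to 0.157). With normexp background correction the Apaf1 difference was smaller, -0.18 in TBI and -0.25 in MASM + TBI rats, and passed in both (limma, adjusted p = 0.0384 and 0.00784).

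Casp6, an executioner caspase that cuts nuclear lamins, did not pass in any comparison. The log2 signal of Casp6 was 11.56, 11.06 and 11.22 in control rats, 11.30, 11.25 and 11.37 in TBI rats, and 11.49, 11.46, 11.12 and 11.36 in MASM + TBI rats. The 3 TBI rats lay within the range of the control rats. The difference from control was 0.02 in TBI rats (95% interval -0.31 to 0.36) and 0.08 in MASM + TBI rats (95% interval -0.24 to 0.39).

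Xiap, which binds and inhibits active caspases, had the widest spread of the group among TBI rats. Its log2 signal was 9.46, 9.27 and 9.18 in control rats, 10.08, 9.91 and 8.78 in TBI rats, and 9.36, 9.43, 9.27 and 9.73 in MASM + TBI rats. TBI rats 1 and 2 were the highest of all 10 rats, and TBI rat 3 was the lowest. The TBI difference was 0.28 ± 0.31 (SE), which did not pass (limma, adjusted p = 0.613). It rested on single rats: without TBI rat 3 it was 0.69 (limma, adjusted p = 0.0410), without TBI rat 1 it was 0.04 and without TBI rat 2 it was 0.12. In MASM + TBI rats the difference from control was 0.15 (95% interval -0.51 to 0.80).

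In MASM + TBI rats versus control, 3 of the 7 members passed, Fas higher and Casp2 and Apaf1 lower, beside 3.7% of all named genes, 1.24% higher and 2.46% lower. Fas alone reached the threshold of the study, beside 9.18% of all named genes. At an unadjusted p under 0.05 the members were Fas, Casp2 and Apaf1 in TBI rats, beside 25.3% of all named genes, and again those 3 in MASM + TBI rats, beside 20.5%. The median log2 fold change of the members was 0.08, and that of all named genes was -0.00067. This comparison and that of TBI rats share the same 3 control rats, so their values are not independent. One MASM + TBI rat, rat 3, was on the slide of the control rats, and the other 3 were together on another slide. Within the shared slide the difference from control was 0.91 for Fas, -0.55 for Casp2 and -0.44 for Apaf1, in the same directions. This compares 1 rat with 3, as does the fit with slide as a fixed block, in which none passed (limma, adjusted p = 0.222, 0.0988 and 0.204), so a missed threshold there says nothing about stability. The TBI rats were all on a slide of their own, so for them slide and group cannot be told apart.

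**Figure D2:**
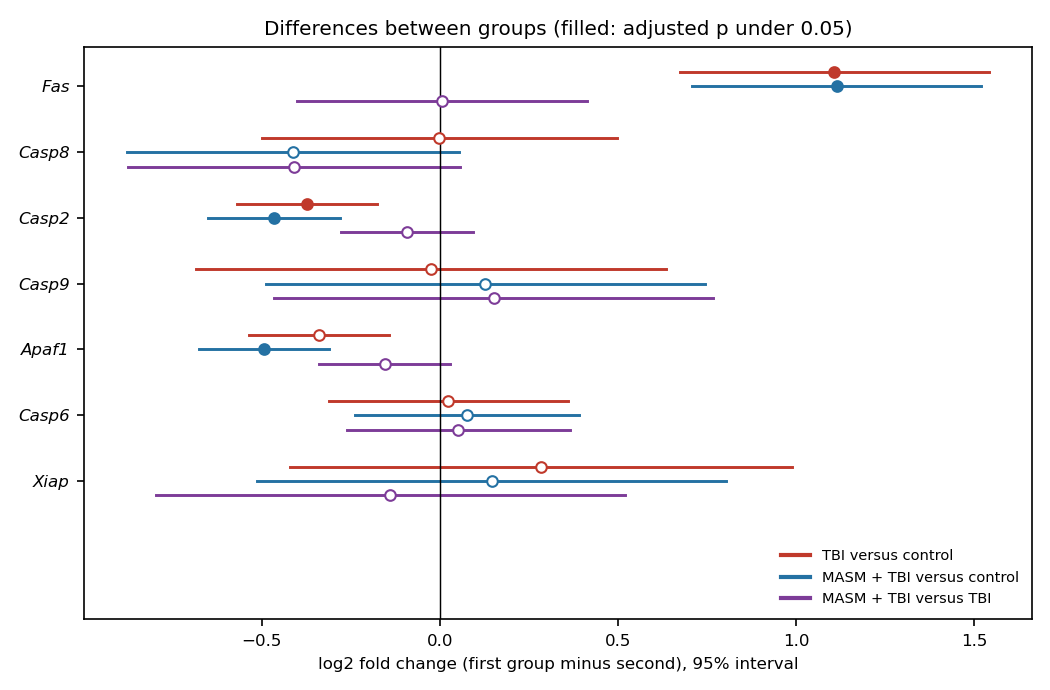
Log2 fold change (x axis, with 95% interval as a line) of each of the 7 measured genes (y axis) for TBI versus control, MASM + TBI versus control and MASM + TBI versus TBI; filled points passed an adjusted p under 0.05. Fas lay at 1.11 in both comparisons with control and at 0.01 between the irradiated groups, where no gene passed.

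Whether MASM changed these genes in irradiated rats was asked by setting MASM + TBI rats against TBI rats. None of the 7 members passed (limma), beside 1.08% of all named genes, and 0 were at an unadjusted p under 0.05, beside 16.5%. By the methods' t-test, 0 passed with or without the adjustment added here. That test was run in Welch's form, with unequal variances, where the study names only a simple t-test. None reached the threshold of the study, beside 7.82% of all named genes. Fas differed by 0.01 with a 95% interval of -0.40 to 0.41 at the brighter probe and by 0.10 with a 95% interval of -0.35 to 0.54 at the dimmer one. Casp2 differed by -0.09 (95% interval -0.28 to 0.09) and Apaf1 by -0.15 (95% interval -0.34 to 0.03). Casp8 differed by -0.41 (95% interval -0.88 to 0.06), and Casp9, Xiap and Casp6 by 0.15, -0.14 and 0.05. Without TBI rat 3 the Xiap difference was -0.54, without TBI rat 1 it was 0.11, and neither passed. An adjusted p that misses the threshold does not show that the irradiated groups were alike.

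Cdkn1a and Mdm2 were set beside Fas as known targets of p53. Cdkn1a encodes the cell cycle inhibitor p21 and had log2 signals of 8.01, 8.25 and 8.84 in control rats, 13.47, 13.67 and 14.06 in TBI rats, and 13.06, 13.23, 12.80 and 13.58 in MASM + TBI rats. Its rise of 5.36 ± 0.27 (SE) in TBI rats and 4.80 ± 0.25 (SE) in MASM + TBI rats set every irradiated rat apart from every control (limma, adjusted p = 0.00013 and 0.00015). Mdm2, the ubiquitin ligase that limits p53, had log2 signals of 8.92, 8.98 and 8.96 in control rats, 9.76, 9.84 and 10.13 in TBI rats, and 10.25, 10.35, 10.01 and 10.66 in MASM + TBI rats. Its rise of 0.96 ± 0.16 (SE) in TBI rats (limma, adjusted p = 0.0162) was of about the size of that of Fas, and in MASM + TBI rats it was 1.37 ± 0.15 (SE) (limma, adjusted p = 0.00372). A test of one gene's rise against another's was not made.

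**Figure D3:**
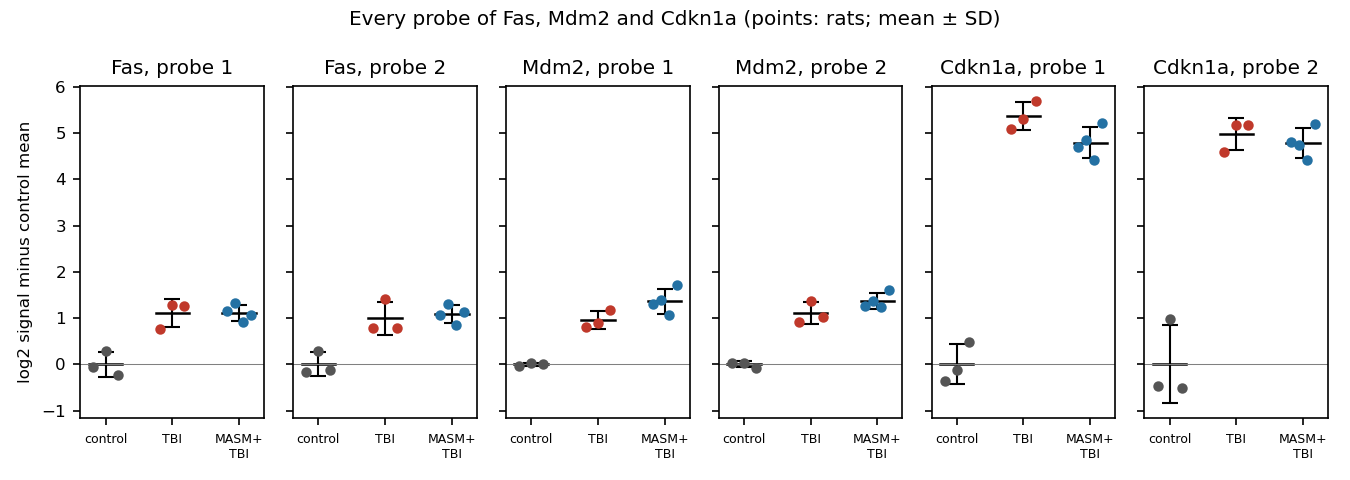
Log2 signal minus the control mean (y axis) for both probes of Fas, Mdm2 and Cdkn1a in every rat (points) of the 3 groups (x axis), with the mean ± SD. The irradiated rats lay about 1 log2 unit above control for Fas and about 5 for Cdkn1a. For Mdm2 the TBI rats lay about 1 above control and the MASM + TBI rats somewhat more. The second Cdkn1a probe was not well above background on the control arrays.

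The genes whose pattern over the 10 arrays was most like that of Fas, among 9576 genes well above background in at least 1 group, were Fzd2, a Wnt receptor (Pearson's r = 0.963), Rpl19, a protein of the large ribosomal subunit (0.955), and Gsta4, a glutathione S-transferase (0.954). All 3 were higher in both irradiated groups than in every control, by 1.47, 0.48 and 0.28 in TBI rats on the log2 scale, and Fzd2 and Rpl19 passed the test (limma, adjusted p = 0.0260 and 0.00595) while Gsta4 did not (0.0798). Most like Casp2 were Arf3, a small GTPase of the Golgi (0.978), Ifi44, an interferon-induced gene (0.978), and Eif2ak1, a kinase that phosphorylates the translation factor eIF2 alpha (0.974). Ifi44 fell by 1.47 in TBI rats (limma, adjusted p = 0.00622), and Arf3 and Eif2ak1 differed by -0.22 and -0.27 and did not pass. In all, 43 genes for Fas and 89 for Casp2 reached a correlation of 0.9. These correlations describe 10 arrays in 3 groups, so a gene that separates irradiated rats from control is high on them.

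The other genes of the death receptor and caspase routes were examined from a list of 47, of which 42 had a named probe. Of these, 1 passed in TBI rats, 2 in MASM + TBI rats versus control and 0 between the irradiated groups (limma), all lower, against the 6.63%, 3.7% and 1.08% of named genes given above. At an unadjusted p under 0.05 the counts were 10, 16 and 4 of 42, beside 25.3%, 20.5% and 16.5% of all named genes, and by the methods' t-test with adjustment 0, 0 and 0. The median log2 fold change over the 42 was -0.03 in TBI rats, -0.10 in MASM + TBI rats versus control and -0.12 between the irradiated groups.

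The gene that passed in both comparisons with control was Birc5, which encodes survivin, a member of the inhibitor of apoptosis family that is also a subunit of the complex that guides chromosomes in mitosis. Its log2 signal was 7.58, 8.51 and 8.16 in control rats, 6.35, 6.30 and 6.16 in TBI rats, and 6.62, 6.17, 6.42 and 6.67 in MASM + TBI rats. Control and irradiated rats did not overlap, where 19% of all probes lay lower without overlap in TBI rats and 8.9% in MASM + TBI rats. Birc5 fell by 1.81 ± 0.23 (SE) in TBI rats, or 3.52-fold (limma, adjusted p = 0.0051), and by 1.61 ± 0.21 (SE) in MASM + TBI rats, or 3.06-fold (limma, adjusted p = 0.00778). Birc5 passed in both comparisons in all 10 fits with 1 rat left out. Within the slide shared by control rats and MASM + TBI rat 3, the Birc5 difference was -1.66; with 1 rat in that arm, the fit did not pass. None of the other 3 measured genes of that list, which leaves out Xiap, passed.

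Daxx, a protein that binds Fas and also acts in chromatin, passed in MASM + TBI rats versus control. Its log2 signal was 9.89, 10.50 and 10.45 in control rats, 9.63, 9.90 and 9.69 in TBI rats, and 9.34, 9.51, 9.52 and 9.24 in MASM + TBI rats. The control rats overlapped the TBI rats and lay above all MASM + TBI rats, as for 8.9% of all probes. Daxx fell by 0.88 ± 0.16 (SE) in MASM + TBI rats versus control (limma, adjusted p = 0.0270) and differed by -0.54 ± 0.17 (SE) in TBI rats (limma, adjusted p = 0.105). The call in MASM + TBI rats was lost without control rat 2 or 3 or without MASM + TBI rat 1, 2 or 4. Within the slide that MASM + TBI rat 3 shared with control, a comparison of 1 rat with 3, the Daxx difference was -0.76 and did not pass. Between the irradiated groups Daxx differed by -0.34 (limma, adjusted p = 0.322).

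Among the ligands, Faslg, which encodes the ligand of Fas, was dim, with log2 signals of 4.88, 5.63 and 5.03 in control rats, 3.85, 5.68 and 5.54 in TBI rats, and 4.31, 4.11, 4.27 and 3.40 in MASM + TBI rats, of which rats 3 and 4 were not well above background. The MASM + TBI rats lay below all control rats, as for 8.9% of all probes, and TBI rat 1 lay with the MASM + TBI rats. TBI rats 2 and 3 lay above the control mean of 5.18, so the lower TBI mean rested on TBI rat 1. The difference from control was -0.16 in TBI rats (95% interval -1.27 to 0.95) and -1.16 in MASM + TBI rats (95% interval -2.19 to -0.12; limma, adjusted p = 0.239). Faslg is a gene of T and NK cells, and the summed signal of 5 NK cell markers was 1065, 2326 and 1666 in control rats, 631, 2026 and 1465 in TBI rats, and 873, 619, 536 and 394 in MASM + TBI rats. None of these 5 NK cell markers passed in any comparison (limma), and their sums were mostly the signal of Nkg7 and Prf1. Summed over 6 T cell markers, the signal was 564, 765 and 666 in control rats and 280, 225 and 417 in TBI rats. In MASM + TBI rats the T cell sums were 350, 395, 207 and 338. The part of these cells in the Faslg values was not tested.

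Cycs, Cflar and Diablo did not pass in either comparison with control. Cycs, which encodes the cytochrome c that starts the apoptosome, differed by 0.42 (95% interval 0.11 to 0.72) in TBI rats and 0.36 (95% interval 0.08 to 0.65) in MASM + TBI rats, with an adjusted p of 0.109 and 0.177 (limma). Cflar, the inhibitor of caspase-8 at the receptor, differed by -0.14 and -0.28. Diablo, the mitochondrial protein that relieves inhibition by Xiap, differed by -0.16 and -0.26.

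By group, 0 of 9 death receptors and ligands, 0 of 12 adaptors and modulators, 0 of 5 other caspases, 0 of 5 apoptosome and mitochondrial factors, 1 of 4 inhibitors of apoptosis other than Xiap and 0 of 7 caspase substrates passed in TBI rats (limma). In MASM + TBI rats the counts were 0, 1, 0, 0, 1 and 0.

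**Figure D4:**
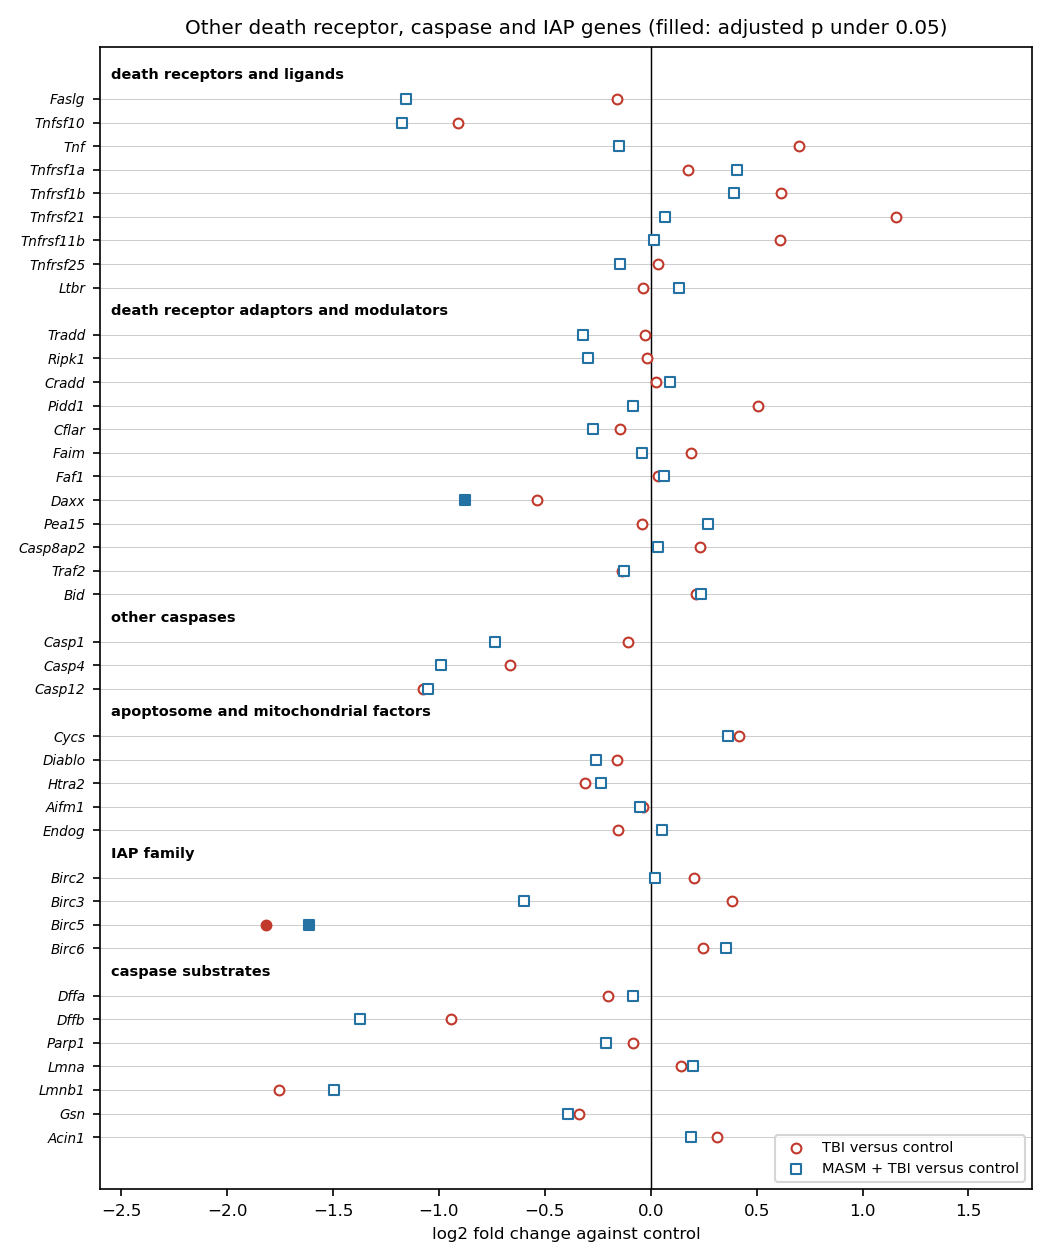
Log2 fold change against control (x axis) of 40 of the 42 measured genes of the death receptor, caspase and inhibitor of apoptosis lists (y axis, by group), for TBI rats (circles) and MASM + TBI rats (squares); filled symbols passed an adjusted p under 0.05. Birc5, at -1.81 and -1.61, passed in both comparisons and Daxx, at -0.88, in MASM + TBI rats.

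The arrays measured whole liver, where fewer cells of a type and less RNA per cell cannot be told apart. The 6 hepatocyte markers, albumin among them, were well above background on all arrays, and none passed in any comparison. Of the 6 T cell markers Cd3e, Cd3g and Cd2 passed lower in TBI rats and Cd3e and Cd3g in MASM + TBI rats, of which Cd3e was not well above background on any array. Their summed signal ran from 564 to 765 in control, 225 to 417 in TBI and 207 to 395 in MASM + TBI rats. Of the 3 measured B cell markers Cd79b passed lower in both comparisons and was well above background in control rats only. The B cell sums of 168 to 206, 160 to 258 and 122 to 159 were mostly the signal of Cd22, which did not pass. None of the 6 Kupffer cell markers passed, with sums of 47106 to 66966, 46676 to 86466 and 37162 to 46067. These were mostly the signal of Clec4f, and each other Kupffer cell marker overlapped between MASM + TBI and control rats. Of the 4 stellate cell markers Lrat passed lower in both. Their sums of 3195 to 3485 in control, 2378 to 2720 in TBI and 2442 to 2717 in MASM + TBI rats did not overlap between control and irradiated rats. These sums were mostly the signal of Lrat. Rgs5 was higher in the irradiated rats and, like Des and Col1a1, did not pass. None of the 4 endothelial cell markers passed. Their sums were 12808 to 15737, 16864 to 20774 and 14738 to 18555, those of TBI rats above all control rats. Most of this signal was that of Kdr, whose own values overlapped between TBI and control rats. None of the neutrophil and cholangiocyte markers passed. The part of these cells in the values of Fas, Casp2 and Apaf1 was not tested. The share of spots well above background was 57.2% to 59.9% on control, 64.1% to 70.1% on TBI and 56.2% to 60.2% on MASM + TBI arrays.

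**Figure D5:**
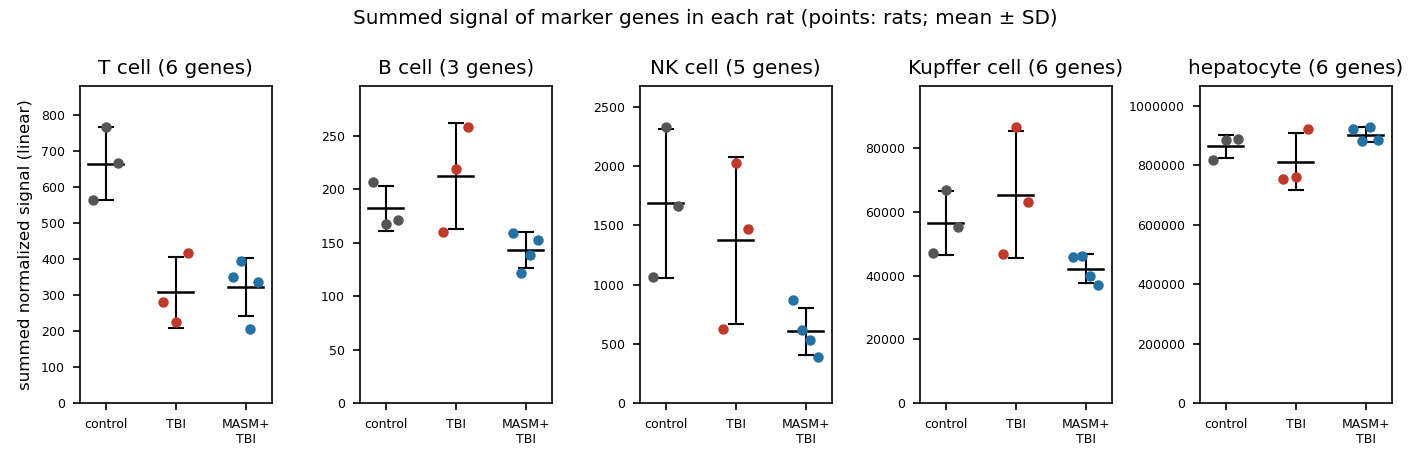
Summed normalized signal on a linear scale (y axes, each panel its own, from 0) of the markers of T, B, NK and Kupffer cells and of hepatocytes in every rat (points) of the 3 groups (x axis), with the mean ± SD. The T cell sums of the 7 irradiated rats, up to 417, lay below those of the 3 control rats, from 564, while the other panels overlapped between TBI and control. The B, NK and Kupffer cell sums of MASM + TBI rats, up to 159, 873 and 46067, lay below those of control rats, from 168, 1065 and 47106. These sums were mostly the signal of Cd22, of Nkg7 and Prf1, and of Clec4f. Cd22 itself and the Kupffer cell markers other than Clec4f overlapped between these groups.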

How the data were processed

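Liver RNA of 10 rats had been labelled with Cy3 and hybridised to 1 array each. Each deposited scanner file holds linear spot intensities from Agilent Feature Extraction 10.7.3.1 (10.7 in the submitters' processing notes), with background subtracted by the authors and no scaling across arrays. A series-wide table of deposited intensities differed from these by 0. Of 45018 spots per array, 1639 control spots and 76 to 112 outlier spots were left out, and 0 were saturated.

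Quantile normalization followed the study's methods and was run on log2 intensities, which were then averaged per probe. Symbols came from RefSeq (GRCr8) by transcript accession, for 16968 of 41012 probes. The brightest probe by mean log2 signal stood for a gene. Means of the 3 groups were fitted to all 10 arrays with limma 3.58.1 in R 4.3.3 (prior degrees of freedom 1.43), and p-values were adjusted by Benjamini-Hochberg over the 40945 probes with a value on every array. Plots used matplotlib 3.10.9 in Python 3.11.15. A probe was well above background if over 50% of its spots were. The text names the 8 genes, pathway genes past the adjusted threshold with Faslg, Cycs, Cflar and Diablo named whatever they showed (2 further genes of this rule are not reported here), 2 p53 targets and the 3 genes of highest correlation with Fas and with Casp2. The members, lists and rules were chosen with earlier results of these data known. On simulated data with these arrays' spread, 200 of 40945 probes were changed. There the fit recovered 12% of 1.5-fold, 54% of 2-fold and 78% of 4-fold changes between TBI and control. In the data 2305 probes passed, so the adjustment acted at another cutoff and these shares do not give the recovery in the data. Alternatives were scaling to the 75th percentile, normexp background correction with an offset of 50, the deposited table, a filter on dim probes, 2 groups per model, the methods' t-test with the adjustment added here, another prior, the replicate number or the slide as a block, array weights, the mean over probes, and leaving out each rat. The t-test was run in Welch's form throughout. The labels give separate rats. The number of arrays limits the precision.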

Additional observations from a re-analysis of the deposited data

How the results depend on the processing

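No member difference that had passed changed its sign under an alternative. Of 455 recomputed member differences, 41 lost and 5 gained an adjusted p under 0.05, and 30 turned sign, none of them past the threshold. Between the irradiated groups 0 members passed under all 21 alternatives.

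For TBI versus control, the count of members passing moved from 2 to 1 with scaling to the 75th percentile, to 0 with 2 groups per model and to 0 by the methods' t-test with a Benjamini-Hochberg adjustment, which the study's methods do not name, rose to 3, with Apaf1, under normexp, slide as a random block and array weights, and ranged from 0 to 3 with 1 rat left out. Fas passed in 8 of 10 such fits. Members at the threshold of the study ranged from 1 to 2 with 1 rat left out, Xiap joining Fas without TBI rat 3; by the methods' t-test without adjustment Fas reached it in both comparisons with control. For MASM + TBI versus control, the count moved from 3 to 1 by the adjusted t-test, to 0 with slide as a fixed block and to 0 within slide 1 (in effect one contrast, of 1 MASM + TBI rat with 3 control rats), and ranged from 0 to 3 with 1 rat left out. There Fas passed in 8 of 10 such fits, and Casp2 and Apaf1 in 5 of 10 each. Casp2 missed without control rats 2 or 3 or MASM + TBI rats 1, 2 or 3 (limma, adjusted p up to 0.0874). Apaf1 missed without any 1 control rat or MASM + TBI rats 1 or 4 (limma, adjusted p up to 0.0768). Among the 13 other alternatives, Fas passed in 9, Casp2 in 8 and Apaf1 in 10.

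Same-numbered rats did not deviate together (correlations of -0.13 to 0.17), so the numbers were not taken to pair them. With the replicate block, 1 member (Fas) passed in TBI rats and 0 in MASM + TBI rats versus control, and pathway genes numbered 2 and 0.

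Other pathway genes passing in TBI rats numbered 4 with the 75th percentile, 2 with normexp, 2 without dim probes, 2 with 2 groups per model, 0 by the t-test, 7 with slide as a random block, 3 with array weights and 1 to 3 with 1 rat left out. In MASM + TBI rats versus control they numbered 4 with normexp, 1 with 2 groups per model, 0 by the t-test, 4 with slide as a random block, 1 as a fixed block, 0 within slide 1 and 1 to 2 with 1 rat left out. Between the irradiated groups they numbered 2 with the 75th percentile, 1 with slide as a random block, 1 with array weights and 0 to 2 with 1 rat left out. Except where fewer rats or probes entered, the cause was not tested.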
